A study of Mus musculus with 12 samples.

Results

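The genes described here are 9 targets of the transcription factor p53 that take part in cell death: Eda2r, Fas, Tnfrsf10b, Bbc3, Pmaip1, Aen, Perp, Ei24 and Trp53inp1. Each was taken from the platform annotation, by the probe set (the group of array oligos that reads 1 transcript) with the highest mean over 12 arrays, out of 18193 genes with a probe set. Lung RNA from wild-type mice had been hybridised to 12 Affymetrix mouse whole-genome arrays in 4 labelled groups of 3. SIMVA-Radiation animals had received simvastatin, an inhibitor of cholesterol synthesis, at 10 mg/kg by intraperitoneal injection 3 times a week before and after a single dose of 25 Gy, and their lungs were taken 6 weeks after it. Radiation animals had the 25 Gy alone, SIMVA animals the injections alone, and Control animals the vehicle. The labels give ages of 8 to 12 weeks for the SIMVA-Radiation, Radiation and SIMVA groups and 8 to 10 weeks for Control, so age and treatment cannot be told apart in a comparison with Control. The study asked whether simvastatin limits vascular leak and inflammation in irradiated lung. No label states that each array was made from its own animal, so the p-values below cover only sample-to-sample spread, which may be technical.

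DNA breaks stabilise p53, which then switches on 1 set of genes that halt the cell cycle and another that can kill the cell. The killing set works at several places. Death receptors at the cell surface pass a signal from outside ligands to caspases. BH3-only proteins bind the guardians of the mitochondrion, so that Bax and Bak can open its outer membrane. Other targets cut DNA, act in membranes of the endoplasmic reticulum or cell junctions, or raise p53 activity and autophagy in turn. In irradiated lung this programme is studied in endothelium and alveolar epithelium, the cells that form the gas barrier.

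The stretches of DNA shown here are the places in the members' promoters that look like the letters p53 binds. Their part in the members' levels was not tested. RefSeq promoter sequences of the GRCm38.p6 build, 250 bases before to 50 after each annotated start, were matched for 5 members (Eda2r, Fas, Bbc3, Aen and Ei24, 8 promoters in all). No entry was matched for Tnfrsf10b, Pmaip1, Perp and Trp53inp1. The core of a p53 site was searched as a pair of tetramers CNNG, each N being A or T, with 6 bases between them, which reads the same on both strands. It was found in 3 of the 8 member promoters, those of 2 members, and in 7.22% of all 32851 promoters. The p53 half-site is the decamer of which a full site holds a pair. It was found in 3 of the 8 member promoters, those of 2 members, and in 8.36% of all promoters. It overlaps the tetramer pair in Aen. The 2 Aen promoters hold the same stretch, which is counted once for each of them. Each window below is 30 bases long, 5′ to 3′ on the strand of the gene, with the match in capitals.
Bbc3, tetramer pair 94 bases upstream of a start, chr7:16309481-16309510, plus strand: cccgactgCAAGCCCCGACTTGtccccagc
Aen, tetramer pair 118 bases upstream of 1 of 2 annotated starts, chr7:78895932-78895961, plus strand: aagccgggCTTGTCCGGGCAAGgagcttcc
Ei24, p53 half-site 10 bases upstream of the start, chr9:36797325-36797354, minus strand: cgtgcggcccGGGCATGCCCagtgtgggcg
The windows of Eda2r and Fas held neither pattern, which says only that these letters are not within those 300 bases.

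All values are deposited log2 intensities, so a difference of 1 is a doubling of the signal. The tests covered 11602 genes, those with a signal over log2 4.85, the overall median, on 3 or more of the 12 arrays. Of the 9 members 8 passed that filter and Tnfrsf10b did not. Eda2r passed through the 7 arrays on which it was high. SIMVA 1 and SIMVA 3 were near-identical, with an SD of 0.118 between their log2 values over 10370 bright probe sets, so their mean entered the fit as 1 sample (11 samples, n = 2 for SIMVA). SIMVA-Radiation 3 was as close to both of them, with SDs of 0.111 and 0.114, while the next closest pair of arrays stood at 0.337. It carries another label and was kept apart.

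The check gene of p53 activity stood apart from the rest of its group on 3 arrays. Cdkn1a, which encodes the cell cycle inhibitor p21, read 13.19, 13.17 and 11.18 on the SIMVA-Radiation arrays, 13.36, 13.12 and 13.42 on the Radiation arrays, 11.09, 13.36 and 11.11 on the SIMVA arrays and 10.25, 10.69 and 13.01 on the Control arrays. The library labelled SIMVA-Radiation 3 thus had a low level, the library labelled SIMVA 2 a level in the range of the Radiation arrays, and the library labelled Control 3 a level just below that range and far above the other Control arrays. Every direction below rests on the labels as given.

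**Figure D1:**
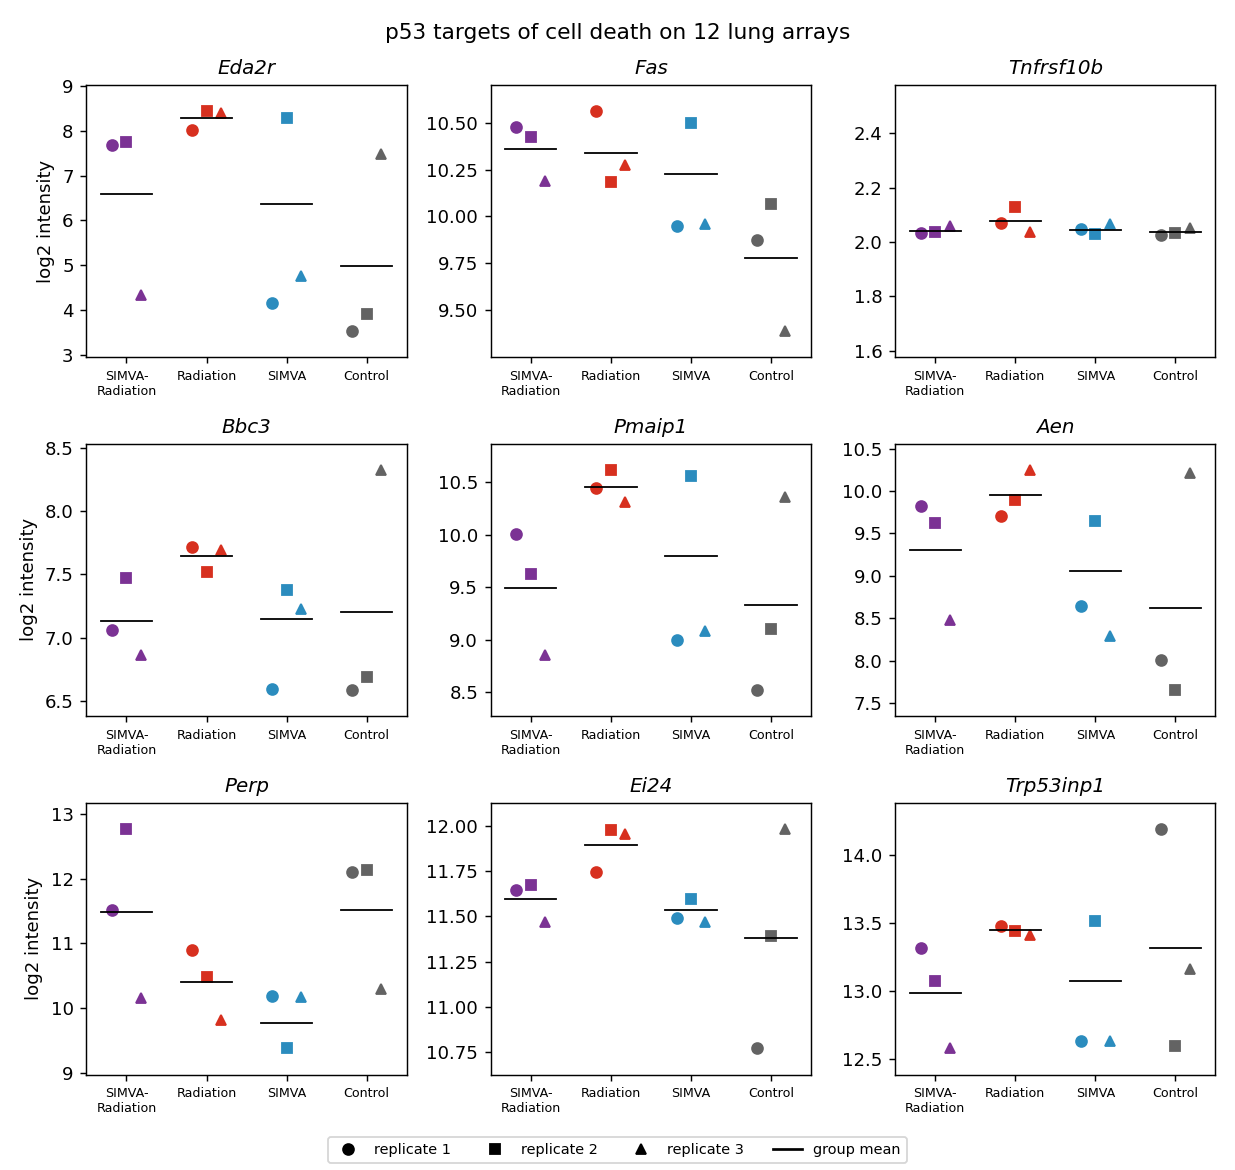
Log2 intensity (vertical axes, a separate scale per panel) of the 9 members on the 12 arrays, by labelled group (horizontal axes), with replicate number as the symbol and the group mean as a bar (SIMVA 1 and SIMVA 3 averaged first). Eda2r, Pmaip1 and Aen are low on SIMVA-Radiation 3, SIMVA 1, SIMVA 3, Control 1 and Control 2 and high on the other 7 arrays. Tnfrsf10b is flat near 2.05 and the 3 Radiation points of Trp53inp1 lie between 13.41 and 13.48.

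Of the receptors, Eda2r had the widest range, 4.90 log2 units. It encodes a receptor of the tumour necrosis factor family for the A2 form of ectodysplasin and, unlike Fas, carries no death domain. Eda2r read 7.67, 7.75 and 4.33 on the SIMVA-Radiation arrays, 8.02, 8.43 and 8.39 on the Radiation arrays, 4.15, 8.28 and 4.75 on the SIMVA arrays and 3.54, 3.91 and 7.49 on the Control arrays. No array lay between 4.75 and 7.49, and each group except Radiation held arrays from both sides of that gap. The low readings were under the filter level of log2 4.85, where array signals are imprecise. In whole lung, fewer expressing cells and less RNA per cell cannot be told apart, here and for every gene below.

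Fas, the receptor of Fas ligand, which recruits Fadd and caspase-8 through its death domain, was bright on all arrays and moved over 1.17 units. It read 10.47, 10.42 and 10.19 on the SIMVA-Radiation arrays, 10.56, 10.18 and 10.27 on the Radiation arrays, 9.95, 10.50 and 9.96 on the SIMVA arrays and 9.88, 10.07 and 9.39 on the Control arrays. Its lowest reading was on Control 3, an array on which Cdkn1a and Eda2r were high. All 6 arrays labelled as irradiated lay above all 3 Control arrays, while SIMVA 2 reached the irradiated range. The share of genes with that order was not counted. For the Radiation arrays alone against Control it was 4.86%. Tnfrsf10b, the death receptor for the ligand Trail, read between 2.03 and 2.13 on all 12 arrays, and its other probe set between 1.94 and 2.02. The 10th percentile of all values was 2.04, so both probe sets sat at the low end of the platform's scale and no group can be set above another for this receptor.

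The BH3-only genes differed in how far they moved. Pmaip1 encodes Noxa, which neutralises the survival protein Mcl1. It read 10.01, 9.63 and 8.85 on the SIMVA-Radiation arrays, 10.45, 10.62 and 10.31 on the Radiation arrays, 8.998, 10.56 and 9.08 on the SIMVA arrays and 8.52, 9.10 and 10.36 on the Control arrays. Its 5 lowest arrays were those of Eda2r. All SIMVA-Radiation arrays lay below all Radiation arrays, including the 2 on which Cdkn1a was high.

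Bbc3 encodes Puma, a BH3-only protein that binds all the main survival proteins of the Bcl2 family. It read 7.06, 7.47 and 6.87 on the SIMVA-Radiation arrays, 7.72, 7.52 and 7.70 on the Radiation arrays, 6.59, 7.38 and 7.23 on the SIMVA arrays and 6.59, 6.69 and 8.32 on the Control arrays. Control 3 had the highest level of the 12 arrays, above each Radiation array. SIMVA 1 and SIMVA 3, near-identical over the whole array, stood apart for this gene, at 6.59 and 7.23. The promoter window with the tetramer pair shown above belongs to this gene.

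Aen encodes a nuclease that p53 induces and that helps to digest DNA in dying cells. It read 9.82, 9.62 and 8.47 on the SIMVA-Radiation arrays, 9.71, 9.89 and 10.25 on the Radiation arrays, 8.65, 9.64 and 8.30 on the SIMVA arrays and 8.01, 7.66 and 10.21 on the Control arrays. Its 5 lowest arrays were again those of Eda2r, with a gap between 8.65 and 9.62. Of its other 3 probe sets, the next brightest gave 7.40, 8.17 and 6.06 on the SIMVA-Radiation arrays, 8.14, 8.46 and 8.47 on the Radiation arrays, 5.80, 8.25 and 5.81 on the SIMVA arrays and 6.44, 6.16 and 7.44 on the Control arrays, the same arrays low and high. The other pair stayed between 4.32 and 5.47 and between 2.17 and 2.33.

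Ei24 encodes a membrane protein of the endoplasmic reticulum that p53 induces and that acts in autophagy. It read 11.65, 11.67 and 11.47 on the SIMVA-Radiation arrays, 11.75, 11.98 and 11.95 on the Radiation arrays, 11.49, 11.59 and 11.47 on the SIMVA arrays and 10.77, 11.39 and 11.99 on the Control arrays. The order of the arrays was close to that of Aen, with the same 5 at the low end, but the range was 1.22 units, and Control 1 at 10.77 stood well below Control 2 at 11.39. As with Bbc3, Control 3 read highest.

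Trp53inp1 encodes a stress-induced protein that helps to activate p53 and binds autophagy proteins. It was the brightest member and read 13.31, 13.07 and 12.58 on the SIMVA-Radiation arrays, 13.48, 13.44 and 13.41 on the Radiation arrays, 12.64, 13.51 and 12.64 on the SIMVA arrays and 14.19, 12.60 and 13.16 on the Control arrays. Control 1, low for Eda2r, Bbc3, Pmaip1, Aen and Ei24, had the highest Trp53inp1 level of the 12. Its other probe set also peaked on Control 1, at 9.78, and read 6.88 to 8.77 elsewhere. Control 1 was likewise the array with the most signal from thymocyte and T cell markers: summed over the 8 listed genes, all 8 of which had a probe set, it stood at log2 15.74, against 12.14 on SIMVA-Radiation 1 and at most 9.40 on the other 10 arrays. By group that sum ran from 7.79 to 12.14 in SIMVA-Radiation, 7.74 to 8.77 in Radiation, 7.81 to 9.23 in SIMVA and 8.09 to 15.74 in Control, and the part of these cells in the Trp53inp1 level was not tested.

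**Figure D2:**
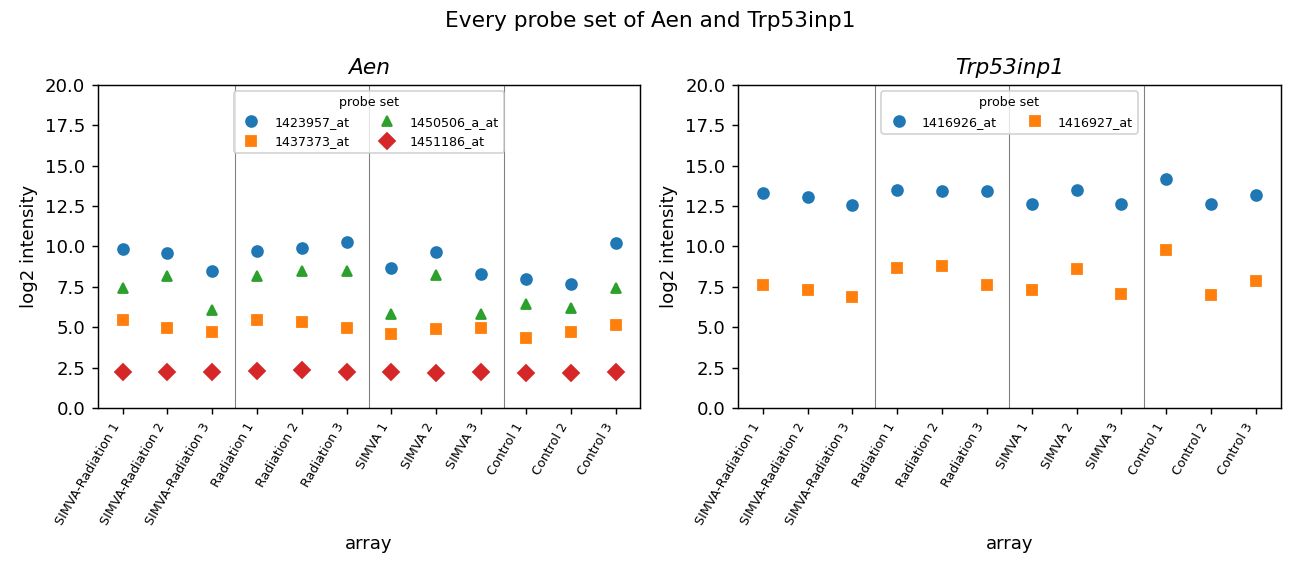
Log2 intensity (vertical axis) of all 4 probe sets of Aen and both probe sets of Trp53inp1 on each array (horizontal axis, groups divided by lines). For Aen, the 2 brighter probe sets are low on the same 5 arrays and the dimmest stays between 2.17 and 2.33, and both Trp53inp1 probe sets peak on Control 1.

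Perp had another order of arrays. It encodes a membrane protein of desmosomes, abundant in stratified epithelium, where p63 as well as p53 drives it. Perp read 11.51, 12.77 and 10.16 on the SIMVA-Radiation arrays, 10.90, 10.49 and 9.82 on the Radiation arrays, 10.19, 9.38 and 10.17 on the SIMVA arrays and 12.10, 12.13 and 10.30 on the Control arrays. The arrays with the highest Perp were SIMVA-Radiation 2, Control 2, Control 1 and SIMVA-Radiation 1, a set that Cdkn1a does not separate.

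Those 4 arrays had the most signal from squamous epithelium markers, keratins and envelope proteins of the oesophagus and skin. The sum of the 11 markers measured, of 12 listed, was 16.64, 16.34, 16.33 and 14.71 on them in that order, 13.92 on Radiation 1, 9.26 on Control 3 and at most 7.58 on the other 6. By group it ran from 6.997 to 16.64 in SIMVA-Radiation, 6.92 to 13.92 in Radiation, 6.98 to 7.15 in SIMVA and 9.26 to 16.34 in Control. Krt6a and Ivl were never above the filter level. The 5 highest arrays for these markers were the 5 highest for Perp, and the part of squamous tissue in the Perp level was not tested.

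**Figure D3:**
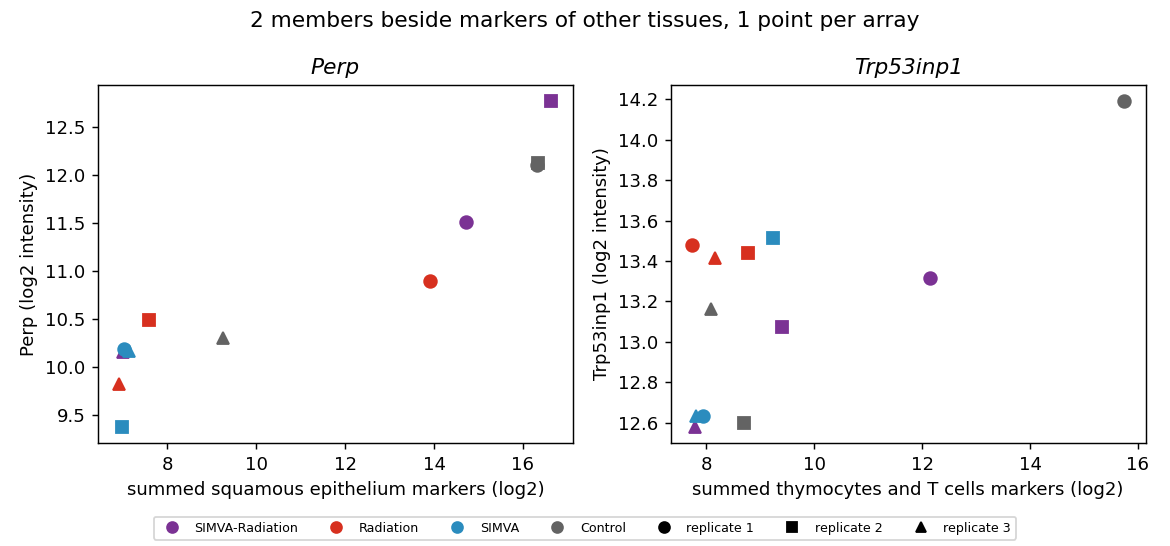
Perp against the summed squamous epithelium markers and Trp53inp1 against the summed thymocyte and T cell markers (both axes log2 intensity, 1 point per array, colour for group and symbol for replicate). Perp is above 10.8 on the 5 arrays whose squamous sum is 13.92 or more, and Control 1, at a thymocyte and T cell sum of 15.74, has the highest Trp53inp1.

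Markers of other cells moved with the arrays as well. Macrophage markers (6 of 6 measured) summed to 13.70 to 14.62 in SIMVA-Radiation, 14.15 to 15.03 in Radiation, 13.69 to 15.00 in SIMVA and 13.26 to 14.53 in Control. On Control 1, SIMVA 1, SIMVA 3 and SIMVA-Radiation 3, 4 of the 5 arrays with low Eda2r, this sum was the lowest of the 12. Each sum adds linear levels, so the brightest marker, here Chil3, weighs most. Marco did not follow it, at 6.87 on SIMVA 1, 6.80 on SIMVA 3 and 7.36 on SIMVA-Radiation 3. It read 2.10 on Radiation 3, 2.29 on SIMVA 2 and 8.09 on SIMVA-Radiation 1. Siglecf, at 7.30, 7.33 and 7.05 on the same near-identical arrays and 6.71 on SIMVA 2, did not follow it either. Neutrophil markers (3 of 5 measured) summed to 13.30 to 15.56 in SIMVA-Radiation, 11.68 to 16.51 in Radiation, 13.20 to 16.36 in SIMVA and 12.02 to 15.28 in Control. They stood at 13.30 or less on all 5 arrays with low Eda2r and at 15.07 or more on the 7 with high Eda2r except Radiation 2, which had the lowest sum of the 12. Skeletal muscle markers (7 of 7) ran from 8.58 to 16.14 in SIMVA-Radiation, 8.13 to 15.23 in Radiation, 7.31 to 8.82 in SIMVA and 14.15 to 15.55 in Control. Brown fat and adipose markers (5 of 6) ran from 14.57 to 16.09 in SIMVA-Radiation, 13.87 to 14.24 in Radiation, 13.25 to 14.55 in SIMVA and 11.06 to 16.07 in Control. Fabp4 was the brightest of them on every array. The brown fat gene Ucp1 read 12.58, 10.49 and 2.21 on the SIMVA-Radiation arrays and 2.26, 8.74 and 2.24 on the Radiation arrays. It read 2.32, 2.28 and 2.22 on the SIMVA arrays and 12.89, 2.20 and 12.28 on the Control arrays. Ciliated cell markers (5 of 5) ran from 11.53 to 12.40 in SIMVA-Radiation, 11.79 to 12.17 in Radiation, 11.43 to 12.38 in SIMVA and 9.98 to 12.20 in Control. B and plasma cell markers (5 of 6) ran from 14.07 to 14.98 in SIMVA-Radiation, 11.44 to 12.86 in Radiation, 11.85 to 14.05 in SIMVA and 12.37 to 14.07 in Control, with Ighm the brightest on every array. The part of all these cells in the members' levels was not tested. The defining lung markers were bright throughout: alveolar type 2 markers (5 of 6 measured) summed to 16.44 to 17.02, alveolar type 1 markers (6 of 6) to 15.69 to 16.59, club cell markers (3 of 3) to 16.73 to 17.13, and endothelial markers (6 of 6) to 13.91 to 15.26. Control 1 was the lowest array for the type 2, type 1, endothelial and ciliated sums, but not for club cells. The next lowest type 2, type 1 and endothelial sums, 16.67, 16.16 and 14.31, were on SIMVA-Radiation 1. What this lower lung signal did to the members' levels on Control 1 was not tested.

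The order of the arrays was shared by part of the set. Eda2r, Pmaip1, Aen and Ei24 had the same 5 arrays at the low end (Control 1, Control 2, SIMVA 1, SIMVA 3 and SIMVA-Radiation 3), as did 252 of 11602 tested genes (2.17%). Bbc3, Fas and Trp53inp1 had 4 of these 5 among their lowest, and so did 15.7% of tested genes with at least 4. For Bbc3 the exception was SIMVA-Radiation 1 in place of SIMVA 3, for Fas Control 3 in place of SIMVA-Radiation 3, and for Trp53inp1 SIMVA-Radiation 2 in place of Control 1. Perp shared 3. The near-identical arrays SIMVA 1, SIMVA 3 and SIMVA-Radiation 3 make up 3 of the 5, so these are fewer than 5 independent readings.

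**Figure D4:**
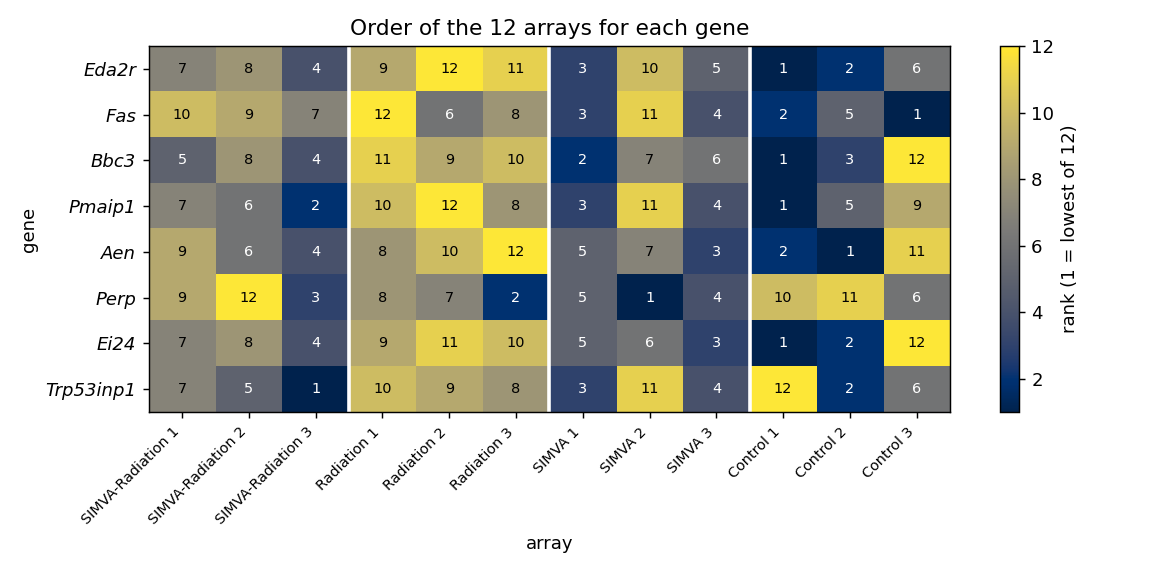
Rank of each of the 12 arrays (horizontal axis) for each of the 8 members tested (vertical axis), from 1 for the lowest to 12 for the highest. Eda2r, Pmaip1, Aen and Ei24 have ranks 1 to 5 on the same arrays, Trp53inp1 differs by its rank of 12 on Control 1, and Perp has ranks 10 and 11 on Control 1 and Control 2.

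Likeness between genes was read as Pearson's r over the 11 samples, given as a description. For a gene with a gap such as that of Eda2r, r mostly records on which side of the gap each sample falls. Of all tested genes outside the set, the closest to Eda2r were Cdkn1a (r = 0.99), Phlda3, which restrains the kinase Akt (0.97), and Zmat3, an RNA-binding p53 target (0.97). Aen stood at place 9 and Pmaip1 at place 11 of 11601 in that order, with r of 0.95 and 0.94. For Aen the closest were Phlda3 (0.98), Dglucy (0.96) and Ctps (0.96), with Eda2r at place 5. For Pmaip1 they were Zmat3 (0.97) and 2 proteases of macrophage-lineage cells, Ctsk (0.97) and Mmp12 (0.97), with Eda2r at place 6.

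The other members had other neighbours. Bbc3 was closest to Ppme1 (0.94), Vnn3 (0.93) and Chchd4 (0.92), with Aen at place 30. Ei24 was closest to Fam234a (0.98), Gas6 (0.97) and Pcbd1 (0.96), and its nearest member, Pmaip1, stood at place 604. Fas was closest to Xdh (0.89), Sat1 (0.87) and Ints8 (0.86), with Eda2r as its nearest member at place 827 and an r of 0.41. Perp was closest to Dsc2, a desmosome cadherin (0.99), Dapl1 (0.99) and Evpl, a protein of the squamous cell envelope (0.98), and its r with the other members ran from -0.44 to 0.07. Trp53inp1 was closest to Gtf2e2 (0.95), Nip7 (0.95) and Cct4 (0.94), and its nearest member, Eda2r, stood at place 2975 with an r of 0.30.

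Radiation minus Control asked what 25 Gy changed without simvastatin. By limma with Benjamini-Hochberg adjustment over all 11602 genes, 0 members and 0 genes passed (0% of genes called and a lowest adjusted p of 0.751, with 600 genes or 5.17% at an unadjusted p under 0.05). Eda2r averaged 8.28 ± 0.22 in Radiation and 4.98 ± 2.18 in Control (SD, n = 3 each), a difference of 3.30 ± 1.32 (SE, limma adjusted p = 0.751). For Fas the means were 10.34 ± 0.20 and 9.78 ± 0.35, which differ by 0.56 ± 0.22 (limma adjusted p = 0.751). These 2 were the members whose Radiation arrays all lay above all Control arrays, as did 4.86% of genes. Aen differed by 1.32 ± 0.64, Pmaip1 by 1.13 ± 0.52, Ei24 by 0.51 ± 0.26, Bbc3 by 0.44 ± 0.43 and Trp53inp1 by 0.13 ± 0.38, each with overlapping groups. Perp was at -1.11 ± 0.68. An unadjusted p under 0.05 was reached upward by 2 members, Eda2r and Fas, and by 4.21% of genes. Of the 8 members 7 lay above 0, as did 60.4% of genes, and the median was 0.54 over the members and 0.08 over all genes.

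The library labelled Control 3 bore on most of these values. Without it Eda2r differed by 4.56, Aen by 2.12, Pmaip1 by 1.64, Bbc3 by 1.004, Ei24 by 0.81 and Perp by -1.71, whereas Fas moved the other way, to 0.37. The remaining Control arrays bore on them in the opposite direction: without Control 1 Bbc3 differed by 0.14, Ei24 by 0.20, Pmaip1 by 0.72 and Eda2r by 2.58, and without Control 2 Aen differed by 0.84. With Control 3 left out, the Radiation arrays lay above Control 1 and Control 2 for 6 of the 8 members, against 25.8% of genes. They lay below them for Perp, against 9.14% of genes. The limma adjusted p of the 8 members without Control 3 ran from 0.0989 for Aen to 0.957 for Trp53inp1, so none passed. Control 3 was singled out on Cdkn1a, itself a p53 target, which by construction widens the difference of genes that move with it. Trp53inp1 differed by 0.57 without Control 1 and by -0.23 without Control 2.

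In a fit with array weights, in which limma gives less weight to arrays far from their group, Eda2r, Aen and Pmaip1 passed. Their differences were 4.03 ± 0.88, 1.96 ± 0.41 and 1.31 ± 0.33 (limma adjusted p = 0.0326, 0.0309 and 0.0415), and 7.66% of genes were called upward in that fit. Control 2 had a weight of 3.54 there, against 0.159 for Control 1 and 0.298 for Control 3, so the comparison rested largely on 1 Control array.

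**Figure D5:**
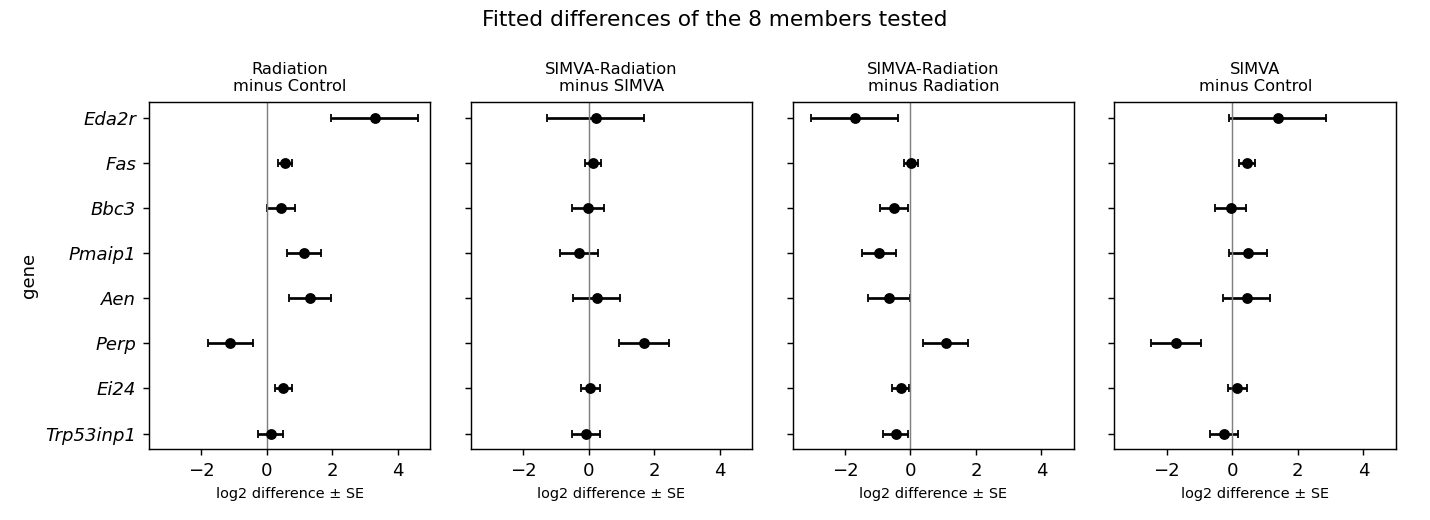
Fitted log2 differences (points) with their standard errors (bars) for the 8 members tested in 4 comparisons, with 0 marked by a line. Eda2r is at 3.30 in Radiation minus Control and has the longest bars, and Perp lies on the opposite side of 0 from Eda2r in Radiation minus Control, SIMVA-Radiation minus Radiation and SIMVA minus Control.

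SIMVA-Radiation minus SIMVA asked what 25 Gy changed in animals given simvastatin. By limma 0 members and 0 genes passed (0% called, with 153 genes or 1.32% at an unadjusted p under 0.05). Eda2r averaged 6.58 ± 1.95 in SIMVA-Radiation (SD, n = 3) and 6.37 ± 2.71 in SIMVA (SD, n = 2), a difference of 0.21 ± 1.48. Fas, Aen, Ei24, Bbc3, Trp53inp1 and Pmaip1 differed by between -0.30 and 0.25. Perp, at 11.48 ± 1.30 in SIMVA-Radiation and 9.78 ± 0.56 in SIMVA, differed by 1.70 ± 0.76 (limma adjusted p = 1). Of the 8 members 5 lay above 0, as did 49.1% of genes. Every member had overlapping groups, while 7.76% of genes lay wholly higher and 6.76% wholly lower. SIMVA-Radiation 3 was near-identical to SIMVA 1 and SIMVA 3 (SDs of 0.111 and 0.114), so nearly the same readings stood on both sides. That favours overlap and small differences, so these values cannot show that 25 Gy changed little under simvastatin. Each group held 1 library whose Cdkn1a stood apart from the rest of the group. The Eda2r difference was 2.13 without SIMVA 2, 1.34 without SIMVA-Radiation 3 and 3.26 without both and Control 3, a choice of arrays made on a p53 target. Without SIMVA 1 and 3, whose Cdkn1a was low, the Eda2r difference was -1.70. Perp differed by 1.06 without SIMVA-Radiation 2.

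SIMVA-Radiation minus Radiation bears on the drug's effect in lungs that had received 25 Gy. By limma 0 members and 0 genes passed (0% called and a lowest adjusted p of 0.835, with 518 genes or 4.46% at an unadjusted p under 0.05). Pmaip1 averaged 9.49 ± 0.59 in SIMVA-Radiation and 10.46 ± 0.15 in Radiation (SD, n = 3 each), a difference of -0.96 ± 0.52 (limma adjusted p = 0.835). Eda2r was at -1.70 ± 1.32, Bbc3 at -0.51 ± 0.43, Trp53inp1 at -0.46 ± 0.38 and Ei24 at -0.30 ± 0.26. For these 5 all SIMVA-Radiation arrays lay below all Radiation arrays, as they did for 13.5% of genes. Aen was at -0.64 ± 0.64 and Fas at 0.02 ± 0.22, with overlapping groups, and Aen was at -1.14 by its probe set of largest variance. Perp was at 1.08 ± 0.68, and at 0.44 without SIMVA-Radiation 2. Of the 8 members 2 lay above 0, as did 37.4% of genes.

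The library labelled SIMVA-Radiation 3 widened the differences of these genes but was not alone in lying low. Without it Pmaip1 was at -0.64, Eda2r at -0.57, Bbc3 at -0.38, Trp53inp1 at -0.25, and Ei24 and Aen both at -0.23. The same 5 members lay wholly below Radiation, which was fixed in advance since all 3 SIMVA-Radiation arrays did, and 27.5% of genes lay so. Perp, at 1.74, then lay wholly above, against 11.1% of genes. None passed. Skeletal muscle markers summed to 16.14 on SIMVA-Radiation 1 and 15.89 on SIMVA-Radiation 2, above the 15.23 of the highest Radiation array, and the part of muscle in these differences was not tested.

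SIMVA minus Control asked what simvastatin changed without radiation. By limma 0 members and 0 genes passed (0% called, with 214 genes or 1.84% at an unadjusted p under 0.05). Perp averaged 9.78 ± 0.56 in SIMVA (SD, n = 2) and 11.51 ± 1.05 in Control (SD, n = 3), a difference of -1.73 ± 0.76 (limma adjusted p = 0.99). It was the member whose SIMVA arrays all lay below all Control arrays, as did 7.96% of genes. SIMVA 1, at 10.19, was close to Control 3, at 10.30. The squamous and skeletal muscle sums were likewise lower on each SIMVA array than on each Control array. The part of these tissues in the Perp difference was not tested. Eda2r differed by 1.39 ± 1.48, Pmaip1 by 0.47 ± 0.58, Fas by 0.45 ± 0.25, Aen by 0.43 ± 0.72, Ei24 by 0.15 ± 0.29, Bbc3 by -0.06 ± 0.48 and Trp53inp1 by -0.24 ± 0.42. Of the 8 members 5 lay above 0, as did 49.6% of genes. Without SIMVA 2, the array with high Cdkn1a, the differences of Eda2r, Pmaip1 and Aen were -0.53, -0.29 and -0.15.

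The interaction, the radiation difference with simvastatin minus that without, called 0 members and 0 genes by limma (0% called, with 377 genes or 3.25% at an unadjusted p under 0.05). Perp was at 2.81 ± 1.02 and Eda2r at -3.09 ± 1.98 (both limma adjusted p = 0.882), and the other 6 members lay between -1.43 and -0.21. Perp was the 1 member above 0, where 42.7% of genes lay. The Eda2r value ran from -5.005 without SIMVA 1 and 3 to -1.17 without SIMVA 2, and was -1.96 without SIMVA-Radiation 3. Without Control 3, SIMVA-Radiation 3 and SIMVA 2, arrays chosen on Cdkn1a, it was -1.30. Fas and Trp53inp1 were then at 0.13 and 0.51. The radiation difference with simvastatin has near-identical arrays on both sides, which favours small values. The interaction therefore cannot show that simvastatin lowered the response of these genes. With both irradiated groups set against both unirradiated ones, 0 members and 0 genes passed (0% called, with 151 genes or 1.3% at an unadjusted p under 0.05). Eda2r differed by 1.76 ± 0.99, Aen by 0.79 ± 0.48, Pmaip1 by 0.41 ± 0.39 and Fas by 0.35 ± 0.17 (each limma adjusted p = 0.999), all with overlapping groups, and 0.0948% of genes lay wholly higher. The other 4 members lay between 0.02 and 0.30, so all 8 were above 0, as were 61.7% of genes. Without SIMVA 1 and 3 Eda2r differed by 0.80, Aen by 0.49, Fas by 0.21 and Pmaip1 by 0.03, and without SIMVA-Radiation 2 Perp was at -0.02. Leaving out Control 3 took the count of genes from 0 to 1 in Radiation minus Control, the interaction and irradiated minus unirradiated. The gene was Aoc1, a diamine oxidase gene that is no member and was named after its values were seen.

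The genes around the members in the death pathway were read from 4 lists. In Radiation minus Control 0 genes of any list passed limma. Of the p53 targets of arrest, repair and feedback 19 of 20 were tested, 15 of the 19 lay above 0 where 60.4% of all genes did, and their median was 0.36 against 0.08 for all genes. Cdkn1a differed by 1.99 ± 0.83 there, Mdm2, whose product degrades p53, by 0.07 ± 0.33 and the antiproliferative gene Btg2 by -0.55 ± 0.40. In SIMVA-Radiation minus Radiation 3 of the 19 lay above 0, with a median of -0.29 against -0.09 for all genes. Without radiation the count was the same as in Radiation minus Control. In SIMVA minus Control 15 of the 19 lay above 0, where 49.6% of genes did, with a median of 0.19 against -0.002. The count was 5 in SIMVA-Radiation minus SIMVA (49.1% of genes) and 11 in irradiated minus unirradiated (61.7%). In the interaction it was 4 (42.7%).

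Other death genes had medians near that of all genes. In Radiation minus Control the 21 Bcl2 family and mitochondrial genes tested of 26 had a median of 0.02 with 12 above 0, the 14 death ligands, adaptors and caspases of 25 a median of 0.02 with 8 above 0, and the 9 genes of p53 and its regulators of 12 a median of -0.07 with 4 above 0. Bcl2l1, which encodes the survival protein Bcl-xL, read 11.69, 11.04 and 11.01 on the SIMVA-Radiation arrays, 11.68, 11.80 and 11.73 on the Radiation arrays, 11.08, 10.94 and 10.89 on the SIMVA arrays and 10.53, 9.95 and 11.97 on the Control arrays. It thus read high on Control 3, like Bbc3 and Ei24, but not on SIMVA 2. In irradiated minus unirradiated, Bcl2l1 differed by 0.60 ± 0.32 and the BH3-only gene Bcl2l11 by -0.48 ± 0.23. In the same comparison Tnfsf10, the ligand of Tnfrsf10b, was at -0.62 ± 0.34, the caspase gene Casp2 at -0.49 ± 0.32, the p53-activating kinase gene Chek2 at 0.54 ± 0.32 and Ppp1r13l, an inhibitor of p53, at 0.36 ± 0.15, each with a limma adjusted p of 0.999.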

How the data were processed

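Lung RNA of 12 mouse samples was measured on 12 arrays. The values are log2 intensities as the authors deposited them, and MAS5 and GCRMA are named per the submitters' processing notes, with no version or role stated. The deposited values were not normalized again. Array medians ran from 4.42 to 5.12. Of 45101 probe sets, 64 were controls and 34945 had 1 gene symbol, of which 34741 were matched to RefSeq by Entrez identifier. Probe sets above log2 4.85, the median of all values, on at least 3 arrays were kept (20073), and a gene was read from its brightest kept probe set by mean. Group means were fitted with limma 3.58.1 (R 4.3.3) to 11 samples with 7 residual degrees of freedom and a variance trend, and p-values were adjusted by Benjamini-Hochberg over all genes. The fit was tested on simulated data with independent noise in every sample, which cannot speak to the near-identical or discordant arrays found here. The number of arrays limits the precision.

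The members, the gene lists and the marker lists were chosen with earlier results of these data known. All members are named, and of the other death genes Cdkn1a, Mdm2 and, from each list, the 2 with the lowest unadjusted p in irradiated minus unirradiated, together with the 3 genes most like each member. Trp53 is not analysed here. Of 18 pairs of arrays with the same replicate number, 8 had correlated deviations above 0.1 (range -0.26 to 0.41). In none of the pairs of groups compared here were all 3 above 0.1, so the numbers were not taken to pair the samples. Between SIMVA-Radiation and Control, which are not compared directly, all 3 were (0.32, 0.29 and 0.41). Alternatives were 12 arrays as samples, a replicate block, median centring, quantile normalization, a floor on low values, no filter, another probe set, array weights, no variance trend and samples left out. Counts of groups that do not overlap without 1 array, and the order of the lowest arrays, were added after the data were seen.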

Additional observations from a re-analysis of the deposited data

How the results depend on the processing

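The count of genes past an adjusted p of 0.05 was 0 in all 6 comparisons as reported. With array weights it was 1241 in Radiation minus Control and 1172 in SIMVA-Radiation minus Radiation. Without Control 3, SIMVA-Radiation 3 and SIMVA 2 together it was 9 in Radiation minus Control and 2 in irradiated minus unirradiated, but these arrays were chosen on Cdkn1a, so member values under that setting carry no p. Leaving out 1 sample at a time gave counts of 0 to 1 in Radiation minus Control, the interaction and irradiated minus unirradiated. The replicate block, fitted on 12 arrays, gave 0 genes in each comparison, and with it the SIMVA-Radiation minus SIMVA differences of Bbc3 and Trp53inp1 were 0.064 and 0.062. The cause of these changes was not tested.

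Signs turned for differences near 0 and for some larger ones. In SIMVA minus Control, Eda2r was at 1.39 as reported and -0.53 without SIMVA 2, and Fas was at 0.45 as reported. In SIMVA-Radiation minus SIMVA, Bbc3 was at 0.064 with 12 arrays as samples, 0.073 with array weights and 0.35 without the 3 arrays. Trp53inp1 was at 0.062, 0.038 and 0.56 under the same settings. Pmaip1 was at 0.78 without the 3 arrays, and Ei24 at -0.025 with median centring. In SIMVA-Radiation minus Radiation, Fas was at -0.34 with median centring. In SIMVA minus Control, Bbc3 was at 0.34 and Trp53inp1 at 0.37 with array weights, and Bbc3 at 0.27 and Fas at -0.018 without the 3 arrays. In the interaction without the 3 arrays, Fas was at 0.13 and Trp53inp1 at 0.51. In irradiated minus unirradiated, Trp53inp1 was at -0.25 with the probe set of largest variance.

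With 1 sample left out at a time, the differences that turned sign had the following ranges. In Radiation minus Control Trp53inp1 ran from -0.23 to 0.57. In SIMVA-Radiation minus SIMVA Eda2r ran from -1.70 to 2.13, Fas from -0.14 to 0.41, Bbc3 from -0.25 to 0.22, Pmaip1 from -1.06 to 0.46, Aen from -0.34 to 0.83 and Trp53inp1 from -0.52 to 0.35. In SIMVA-Radiation minus Radiation Fas ran from -0.056 to 0.13. In SIMVA minus Control Eda2r ran from -0.53 to 3.31, Bbc3 from -0.36 to 0.51, Pmaip1 from -0.29 to 1.23, Aen from -0.15 to 1.23, Ei24 from -0.15 to 0.46 and Trp53inp1 from -0.68 to 0.19. In the interaction Trp53inp1 ran from -0.65 to 0.23. In irradiated minus unirradiated Perp ran from -0.024 to 0.63 and Trp53inp1 from -0.20 to 0.24. Ranges that kept their sign were, in the interaction, -5.005 to -1.17 for Eda2r, -2.19 to -0.67 for Pmaip1, -1.87 to -0.49 for Aen, -1.02 to -0.15 for Bbc3, -0.75 to -0.14 for Ei24, -0.70 to -0.15 for Fas and 2.17 to 3.47 for Perp. In irradiated minus unirradiated they were 0.80 to 2.72 for Eda2r, 0.49 to 1.18 for Aen, 0.032 to 0.79 for Pmaip1, 0.062 to 0.50 for Bbc3, 0.13 to 0.44 for Ei24 and 0.21 to 0.48 for Fas. For Radiation minus Control they were 2.58 to 4.56 for Eda2r, 0.84 to 2.12 for Aen, 0.72 to 1.64 for Pmaip1, 0.14 to 1.004 for Bbc3, 0.20 to 0.81 for Ei24, 0.37 to 0.71 for Fas and -1.71 to -0.80 for Perp. In SIMVA minus Control Fas ran from 0.18 to 0.72 and Perp from -2.34 to -1.33. For SIMVA-Radiation minus SIMVA the ranges were 1.06 to 2.36 for Perp and 0.002 to 0.12 for Ei24. For SIMVA-Radiation minus Radiation they were -2.28 to -0.57 for Eda2r, -1.22 to -0.64 for Pmaip1, -0.90 to -0.23 for Aen, -0.68 to -0.38 for Bbc3, -0.62 to -0.25 for Trp53inp1, -0.37 to -0.23 for Ei24 and 0.44 to 1.74 for Perp. Low signal limits Tnfrsf10b on all arrays and Eda2r on 5.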
